A study of Mus musculus with 6 samples.

Results

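The simple epithelial keratin genes Krt7, Krt8, Krt18, Krt19 and Krt20 were followed in mouse embryonic stem cells (mESCs), and their counts are the subject of the account given here. The 5 genes were taken by symbol from a table of 43309 genes as a family selected on the log2 fold changes of this same comparison, which were known beforehand, so their differences are given as a description and without a test. All 5 were among the 16823 genes tested. The table held 53 protein-coding keratin genes, of which 48 are not among the 5. Libraries were prepared with the TruSeq Stranded mRNA kit from 2 µg total RNA and amplified over 8 PCR cycles. The control group was 3 mESC lines of genotype Zbtb24 wild-type (2lox/+), and the other group was 3 mESC lines labelled Zbtb24 knockout (1lox/1lox), all of strain J1 (129SV) and all grown in medium with serum on gelatin without feeders. By these names both groups carry an allele with lox sites. Each line is described as an independently derived clone, so the spread within a group holds differences between clones together with the counting error of the fragments. The p-values measure only that spread. For some genes it was no larger than counting error alone, so differences between clones were not resolved there.

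Keratins are the intermediate filament proteins of epithelial cells. A filament is built from obligate pairs of 1 type I (acidic) and 1 type II (basic) keratin. K8 (type II) and K18 (type I) form the basic pair of simple, single-layered epithelia and are the earliest keratins of the embryo, where they appear in trophectoderm. K7 (type II) and K19 (type I) join them in ducts and other simple epithelia, and K20 (type I) is typical of intestinal epithelium and of urothelial umbrella cells.

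The libraries held between 25042261 and 28838924 counted fragments. Zbtb24 (ENSMUSG00000019826), the targeted gene, had 510, 512 and 489 counts in the control lines and 888, 925 and 1039 counts in the lines labelled knockout. It was higher by 0.99 ± 0.05 (SE) on the log2 scale (edgeR quasi-likelihood test, adjusted p = 4.32e-23, n = 3 against 3), so the gene-level count goes against a reading of the label as absent mRNA. The table does not separate exons, and which exons were deleted was not examined. The second group is therefore called the libraries labelled knockout throughout. Across all genes tested, 69.5% were called at an adjusted p of at most 0.05, 35.2% lower and 34.4% higher in the libraries labelled knockout. Of the tested genes, 17.0% were called with a log2 fold change of 1 or more in size.

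Krt8 and Krt18 lie next to each other on chromosome 15 and are separated by 23698 bp (mm10). Krt8 (ENSMUSG00000049382) occupies chr15:101996698-102004482 on the minus strand, and Krt18 (ENSMUSG00000023043) occupies chr15:102028180-102032027 on the plus strand. Krt7 (ENSMUSG00000023039) lies in the type II cluster at chr15:101411043-101430313 on the plus strand. The other type I genes are on the minus strand of chromosome 11, Krt19 (ENSMUSG00000020911) at chr11:100140810-100148665 and Krt20 (ENSMUSG00000035775) at chr11:99428403-99438150. Krt18 is thus the type I gene that sits among type II genes.

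RefSeq promoter windows (GRCm38.p6) matched 4 of the 5 genes. The parts of the 250 bases before each RefSeq start that lie outside annotated exons are shown 5′ to 3′ on the strand of the gene, so that the windows of the adjacent genes Krt8 and Krt18 can be set beside those of Krt7 and Krt20. They are chr15:102004483-102004592 for Krt8 (minus strand), chr15:102027966-102028179 for Krt18 (plus strand), chr15:101412153-101412401 for Krt7 (plus strand) and chr11:99438154-99438403 for Krt20 (minus strand). The RefSeq start of Krt7 (chr15:101412403) lies inside the gene span given above. Its window is therefore within the annotated gene and not upstream of the annotated gene start. Capitals mark matches of the GC box GGGCGG on either strand, which reads CCGCCC when it lies on the other strand, and of TATAAA.
Krt8: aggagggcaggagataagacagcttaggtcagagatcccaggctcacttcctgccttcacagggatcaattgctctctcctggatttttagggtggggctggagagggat
Krt18: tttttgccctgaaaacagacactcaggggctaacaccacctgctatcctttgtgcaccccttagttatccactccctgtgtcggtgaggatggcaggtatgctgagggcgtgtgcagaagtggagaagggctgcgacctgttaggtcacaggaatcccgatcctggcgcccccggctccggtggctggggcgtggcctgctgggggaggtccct
Krt7: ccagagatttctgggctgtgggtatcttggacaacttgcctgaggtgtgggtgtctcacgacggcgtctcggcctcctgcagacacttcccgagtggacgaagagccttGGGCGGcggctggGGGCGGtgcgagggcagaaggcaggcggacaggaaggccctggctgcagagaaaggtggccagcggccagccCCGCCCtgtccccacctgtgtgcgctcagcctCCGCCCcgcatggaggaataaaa
Krt20: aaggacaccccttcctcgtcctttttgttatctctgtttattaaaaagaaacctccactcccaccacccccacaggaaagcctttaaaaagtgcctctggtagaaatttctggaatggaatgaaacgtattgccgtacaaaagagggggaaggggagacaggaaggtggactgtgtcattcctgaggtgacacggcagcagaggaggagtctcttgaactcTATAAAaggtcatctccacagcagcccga
The Krt7 window held 4 GC boxes, 141 and 128 bases before the RefSeq start on the strand of the gene and 56 and 24 bases before it on the other strand. The Krt20 window held TATAAA 29 bases before the start. Neither motif matched in the Krt8 or Krt18 windows, and TGANTCA and CCGGAAG matched in none of the 4. Over the 250-base windows of all 32851 promoters, searched on both strands, GGGCGG was present in 32.7%, TATAAA in 12.4%, TGANTCA in 6.75% and CCGGAAG in 6.91%. GC content was 66.0% in Krt7, 60.4% in Krt18, 58.0% in Krt8 and 48.0% in Krt20, against a median of 52.4% over all promoters. The windows held 16 CpG dinucleotides in Krt7, 12 in Krt18, 5 in Krt20 and 3 in Krt8, with a median of 6 over all promoters. These matches describe letters in the windows, and no binding was measured.

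Krt8 had 6234, 6249 and 6281 counts in the control lines and 244, 258 and 339 counts in the libraries labelled knockout. Scaled to the effective library size, the counts-per-million (cpm) values were 226 ± 3.85 cpm (SD, n = 3) and 10.6 ± 1.34 cpm (SD, n = 3). The groups did not overlap, and the libraries labelled knockout were lower by 21.2-fold (log2 fold change -4.41 ± 0.044, SE). Krt18, its pairing partner, had 3202, 3387 and 3249 counts in the control lines and 153, 161 and 198 counts in the libraries labelled knockout. Its level was 118 ± 4.74 cpm against 6.47 ± 0.581 cpm (SD, n = 3 each). The groups again did not overlap, with an 18.3-fold lower level in the libraries labelled knockout (log2 fold change -4.19 ± 0.051, SE). Both genes were highest in line 3 of the libraries labelled knockout. The spread of Krt8 between lines was 1.70% of its mean in the controls, where counting error alone gives 1.26%, and 12.6% in the libraries labelled knockout, where it gives 5.97%. Because the RNA came from bulk cultures, fewer cells with a keratin mRNA and less of that mRNA per cell cannot be told apart.

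Krt19, a type I keratin that can pair with K8, had 1697, 1819 and 1726 counts in the control lines and 190, 163 and 185 counts in the libraries labelled knockout. The mean level was 63.1 ± 2.95 cpm against 6.82 ± 0.399 cpm (SD, n = 3 each), 9.26-fold lower (log2 fold change -3.21 ± 0.056, SE). All 3 control lines lay above all 3 libraries labelled knockout, and the highest of the latter was line 1, not line 3 as for Krt8 and Krt18. The spread of Krt19 in the libraries labelled knockout was 5.85% of its mean, below the 7.47% that counting error alone gives. The order of these lines is therefore not resolved for Krt19. Krt7, the type II keratin of ducts, had 384, 452 and 421 counts in the control lines and 43, 44 and 47 counts in the libraries labelled knockout. Its level was 15.1 ± 1.41 cpm against 1.70 ± 0.0765 cpm (SD, n = 3 each), 8.90-fold lower (log2 fold change -3.15 ± 0.11, SE). The groups did not overlap, and Krt7 followed Krt19 in size of difference though the genes are of opposite type and on different chromosomes.

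Krt20, the intestinal and urothelial member, was near the lower limit of the measurement. It had 17, 21 and 21 counts in the control lines and 14, 11 and 17 counts in the libraries labelled knockout. The levels were 0.711 ± 0.0926 cpm and 0.528 ± 0.078 cpm (SD, n = 3 each), a log2 fold change of -0.41 ± 0.30 (SE). The raw counts met at 17, and in cpm the lowest control line (0.604) and the highest library labelled knockout (0.602) nearly touched. In this comparison 4 of the 5 genes were called, all lower and all with a log2 fold change of 1 or more in size, and Krt20 was not. Of all genes tested, 69.5% were called, 35.2% lower, and 17.0% were called with a log2 fold change of that size in either direction. The cpm values of the groups did not overlap, with the libraries labelled knockout lower, for 5 of the 5 genes, and for 36.2% of all genes tested. Nothing is read from these counts, since this comparison chose the genes. The plot of cpm by line sets the 5 genes side by side on a log axis.

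**Figure D1:**
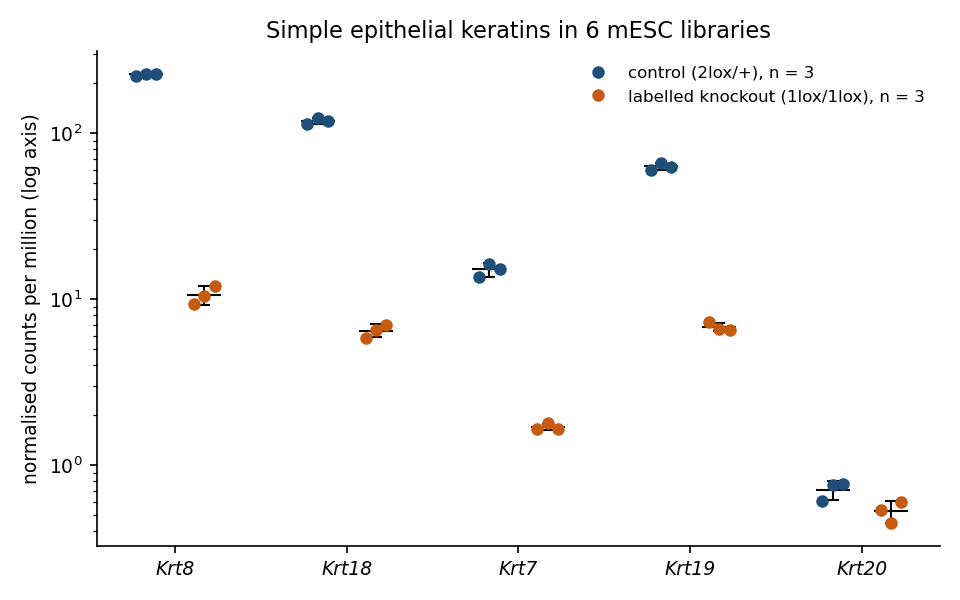
Level of each of the 5 keratin genes in every library in cpm on a log axis, with each point a line, each short bar a group mean and error bars for the SD (n = 3). Krt8, Krt18, Krt19 and Krt7 are separated between the groups, at 226 against 10.6 cpm for Krt8, whereas Krt20 lies below 1 cpm in all 6 libraries.

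Divided by transcript length, the levels of the genes can be compared with each other, as far as the length fits the transcripts made. The length is that of the longest annotated transcript, 4094 bases for Krt7 and 1437 to 1958 bases for the others. If the cells made a shorter Krt7 transcript, its level, percentile and share are understated. Which transcripts were made was not examined. In the control lines the order was Krt8 at 115 ± 2.0 cpm per kb, Krt18 at 82.4 ± 3.3, Krt19 at 40.1 ± 1.9, Krt7 at 3.70 ± 0.34 and Krt20 at 0.369 ± 0.048 cpm per kb (SD, n = 3 each). Each step in this order was wider than the spread between lines. In the libraries labelled knockout the top of the order closed up, with Krt8 at 5.42 ± 0.68, Krt18 at 4.50 ± 0.40 and Krt19 at 4.33 ± 0.25 cpm per kb (SD, n = 3 each). On the longest transcript the lines overlapped there between neighbours, since Krt8 ranged from 4.77 to 6.13, Krt18 from 4.08 to 4.88 and Krt19 from 4.16 to 4.62 cpm per kb. Krt7 (0.415 ± 0.019 cpm per kb) stayed above Krt20 (0.274 ± 0.040 cpm per kb). With the summed exon length of the gene in place of the longest transcript, Krt7 was at 0.234 to 0.254 cpm per kb, inside the range of Krt20 (0.232 to 0.312). On that length Krt19 was at 3.53 to 3.92 cpm per kb, below every value of Krt18, so these steps of the order in the libraries labelled knockout depend on the length used. Ranked among all genes tested by mean level per length, Krt8 stood at percentile 96.8 in the control lines and 54.0 in the libraries labelled knockout, and Krt18 at percentiles 95.2 and 50.6. Krt19 moved from percentile 88.8 to 49.9 and Krt7 from 46.8 to 19.5, whereas Krt20 stood at 16.2 and 15.2.

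The ratio of Krt8 to Krt18 level per length, type II over type I of the same pair, was 1.43, 1.35 and 1.42 in the control lines and 1.17, 1.18 and 1.26 in those labelled knockout. The means were 1.40 ± 0.041 and 1.20 ± 0.048 (SD, n = 3 each), and the groups did not overlap. In the libraries labelled knockout counting error alone gives 5.97% of the mean for Krt8 and 7.65% for Krt18. The SD of 0.048 is narrower than that, so it understates the error of the ratio. The Krt8 value carries a limit of its own. Of the 1883 windows of 76 bases in the longest Krt8 transcript, 437 (23.2%) also occur in another annotated transcript, 410 of them in the processed pseudogene Krt8-ps on chromosome 7 and 27 in the lincRNA Gm36026. Reads that mapped to several places were discarded when the counts were made, so Krt8 counts leave out an unknown share, and the ratio inherits it. None of the windows of Krt18, Krt7, Krt19 or Krt20 was shared.

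The rest of the keratin family divided into genes that fell, a few that rose and many that were hardly counted. Of the 48 other protein-coding keratin genes, 15 were tested, 9 were called and 6 were not, with 7 lower and 2 higher. Their median log2 fold change was -0.63, against 0.00 over all genes tested (also -0.63 with Krt80, which is near 0 in 1 group, at its bound), and the background of calls was 35.2% lower and 34.4% higher. Among type I genes 7 of 11 were called, 6 lower and 1 higher, and among type II genes 2 of 4, 1 lower and 1 higher. A further 26 had at most 3 counts in every library, 8 of them 0 in all 6 libraries, and a count of 0 allows up to 3 counts in a library by counting error alone.

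Krt14, the type I keratin of basal cells in stratified epithelium, had 50, 62 and 66 counts in the control lines and 6, 2 and 3 in the libraries labelled knockout. It fell by 3.90 ± 0.31 (SE) on the log2 scale (adjusted p = 1.13e-15). Krt16, a type I keratin of stressed and wound-edge epidermis, had 63 to 83 counts in the control lines and 6 to 10 in the libraries labelled knockout, and fell by 2.99 ± 0.24 (SE, adjusted p = 6.99e-16). Krt14 shared 5.79% of its 76-base windows and Krt16 28.7%, including 94 windows that these genes share with each other, so both counts are uncertain. Krt17, of basal cells and skin appendages, had 1015, 999 and 1004 counts in the control lines and 346, 291 and 347 in the libraries labelled knockout. It fell by 1.54 ± 0.053 (SE) on the log2 scale (adjusted p = 7.14e-30). Krt42, a type I keratin gene that is a pseudogene in humans, had 1236, 1359 and 1295 counts in the control lines and 711, 673 and 820 in the libraries labelled knockout, and fell by 0.75 ± 0.045 (SE, adjusted p = 4.86e-20). All 4 genes were lower in every library labelled knockout than in any control line.

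Krt13, of mucosal epithelium, was called lower (log2 fold change -0.63 ± 0.21, SE, adjusted p = 0.00717), although its counts overlapped, with 40 to 53 in the control lines and 21 to 43 in the libraries labelled knockout. Krt10, the type I keratin of suprabasal epidermis, was not called (log2 fold change -0.25, adjusted p = 0.16), nor were Krt12 of the cornea (-0.15, adjusted p = 0.614), Krt222 (0.37, adjusted p = 0.137) or Krt79 (-0.10, adjusted p = 0.716). Krt84, named after its values were seen because it is the other keratin called higher beside Krt23, had 0 to 4 counts in the control lines and 2 to 10 in the libraries labelled knockout (log2 fold change 1.81 ± 0.70, SE, adjusted p = 0.0197). Its call was lost without control line 3 (8 of 15 other keratins called). The call was also lost without line 1 of the libraries labelled knockout (7 of 15, where Krt13 was lost too). Without line 3 of the libraries labelled knockout, Krt84 reached 10 counts in no library and was not tested (10 of 14 called).

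**Figure D2:**
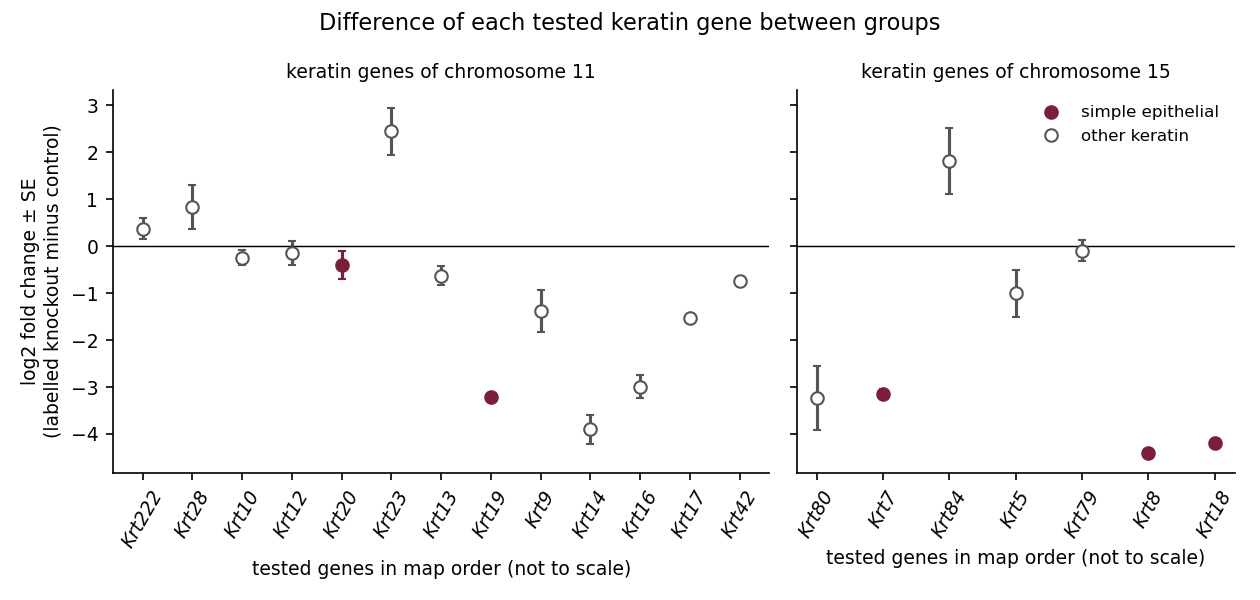
Log2 fold change of each tested keratin gene, libraries labelled knockout over control, with bars for the SE, in map order on chromosomes 11 and 15 (filled points are the 5 simple epithelial keratins and open points the others, with Krt80 at its fitted value). Krt8 lies lowest at -4.41 and Krt23 highest at 2.44, and Krt14 at -3.90 is the nearest other keratin to Krt18.

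As a share of all keratin mRNA per length, the 5 genes made up 79.7 ± 0.033% in the control lines and 32.9 ± 1.3% in the libraries labelled knockout (SD, n = 3 each). Counting error alone is 1.26% of the mean for Krt8 and 1.75% for Krt18 in the control lines, so the SD of 0.033% understates the error of that share. The summed level per length of the 5 genes was 242 ± 7.1 and 14.9 ± 0.88 cpm per kb, and that of the other keratins 61.6 ± 1.9 and 30.5 ± 0.78 cpm per kb. Krt8 alone was 38.0 ± 0.65% of keratin mRNA in the control lines and 11.9 ± 1.2% in the libraries labelled knockout, and Krt18 was 27.2 ± 0.33% and 9.91 ± 0.73%. Krt42, which fell in level, was 10 ± 0.3% of the total in the control lines and 39.8 ± 0.46% in the libraries labelled knockout. The share of Krt17 was 7.72 ± 0.20% and 17.7 ± 1.1%. Krt42 was therefore the keratin with the highest share in the libraries labelled knockout and Krt8 the one in the control lines. The type II to type I ratio over all keratins was 0.657 ± 0.017 in the control lines and 0.173 ± 0.015 in the libraries labelled knockout (SD, n = 3 each). By this measure type I mRNA was in excess in both groups. Most of the type II level was Krt8, whose counts leave out an unknown share of reads, and the length used for Krt7 may understate its level. Both limits could lower the ratio, by an amount not known.

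**Figure D3:**
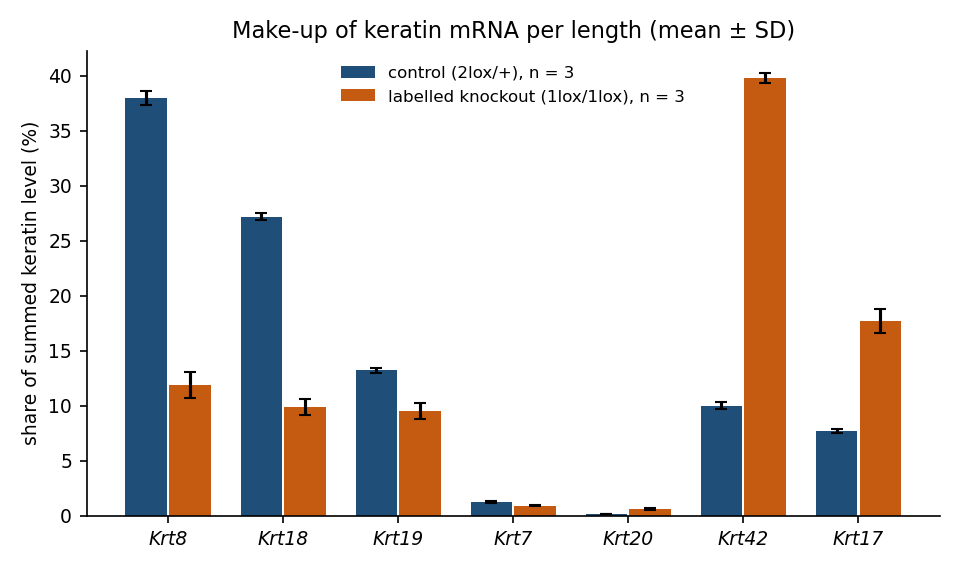
Share of the summed keratin level per transcript length, in percent, taken by each of the 5 simple epithelial keratins, Krt42 and Krt17, as bars for the group means with error bars for the SD (n = 3). Krt8 is the tallest bar of the control lines at 38.0% and Krt42 that of the libraries labelled knockout at 39.8%.

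The genes beside the 5 keratins did not share one direction. Eif4b, a translation initiation factor gene 41746 bp to the right of Krt18, had 21037 to 21934 counts in the control lines and 18693 to 21397 in the libraries labelled knockout and was not called (log2 fold change -0.03, adjusted p = 0.207). To the left of Krt8, Krt78 had 3 to 4 and 0 to 2 counts and was too low to test. Krt80, 40881 bp from Krt7, had 9 to 13 counts in the control lines and 0 to 2 in the libraries labelled knockout, which makes it at least 3.48-fold lower against a floor of 3 counts in a library (adjusted p = 4.39e-05). On the other side of Krt7, Krt87 had 1 to 2 and 0 to 1 counts. Krt9, a type I keratin of palm and sole epidermis 38116 bp from Krt19, had 13 to 15 and 1 to 9 counts and fell by 1.39 ± 0.45 (SE) on the log2 scale (adjusted p = 0.00571), a call that was lost without line 2 of the libraries labelled knockout (8 of 14 other keratins called). Krt15, 4882 bp from Krt19 on its other side, had 6 to 7 and 1 to 3 counts. Krt23, 39824 bp from Krt20, rose from 1 to 4 counts to 13 to 17 counts (log2 fold change 2.44 ± 0.50, SE, adjusted p = 2.58e-05), the opposite direction to the other called type I keratins. The antisense gene A830036E02Rik, 2906 bp from Krt20 on its other side, had 1 to 3 counts in the 6 libraries. The median log2 fold change of tested genes was 0.04 on chromosome 11 (991 of 1409 called) and -0.01 on chromosome 15 (431 of 635 called).

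The gene lists from here on were chosen with earlier results of these data known, so their counts of calls and medians are a description. Epithelial adhesion and epithelial regulator genes were mostly lower. Of 26 listed and tested genes 25 were called, 23 lower and 2 higher, where 69.5% of all genes tested were called, 35.2% lower and 34.4% higher. The median log2 fold change was -1.32 beside 0.00 over all genes. Ap1m2, the epithelial clathrin adaptor subunit that sorts proteins to the basolateral membrane, had 1147 to 1156 counts in the control lines and 89 to 110 in the libraries labelled knockout (log2 fold change -3.46 ± 0.066, SE, adjusted p = 1.67e-40). Cldn7, a tight junction claudin, had 783 to 844 and 64 to 79 counts (-3.44 ± 0.081, adjusted p = 1.04e-36). The claudin gene Cldn6 (-2.60, adjusted p = 4.25e-43) and Lgals3, which encodes galectin 3 (-2.51, adjusted p = 2.05e-38), also fell. Grhl3, a grainyhead transcription factor of surface epithelium, rose by 0.38 ± 0.047 (SE) on the log2 scale (adjusted p = 9.45e-10). Elf3, an ETS factor of epithelial cells, was called higher by 0.11 ± 0.042 (SE, adjusted p = 0.0188), but its raw counts overlapped, and the call was lost without control line 2, control line 3 or line 1 of the libraries labelled knockout (24 of 26 called each time). Of its genes, 14 of 26 were called with a log2 fold change of 1 or more in size, beside 17.0% of all genes tested.

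Genes of desmosomes, hemidesmosomes and keratin linkers, the structures to which keratin filaments attach, had 14 of 15 tested genes called, 11 lower and 3 higher, beside 69.5% of all genes called, 35.2% lower and 34.4% higher. Their median log2 fold change was -0.69. Dsp, encoding desmoplakin, which anchors keratin filaments to the desmosome, had 3175 to 3302 counts in the control lines and 663 to 756 in the libraries labelled knockout (log2 fold change -2.09 ± 0.037, SE, adjusted p = 4.63e-42). The desmosomal cadherin gene Dsc2 fell by 2.58 (adjusted p = 8.4e-25), Ppl, encoding periplakin, by 2.33 (adjusted p = 2.22e-27), and Itgb4, the hemidesmosome integrin subunit, by 1.75 (adjusted p = 2.17e-22) on the log2 scale. Dsg2, the other desmosomal cadherin gene of simple epithelia on the list, rose by 0.34 ± 0.039 (SE, adjusted p = 7.79e-11), and the linker gene Dst rose by 0.26 (adjusted p = 6.19e-06). Tchp, a keratin-binding protein gene, was called higher by 0.13 (adjusted p = 0.0265), and its call was lost without control line 2 or lines 1 or 2 of the libraries labelled knockout (13 of 15 called each time) and without control line 1 (14 of 15 called, Pkp4 in its place).

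Other intermediate filament genes showed both directions, with 13 of 14 tested genes called, 10 lower and 3 higher (all genes 69.5% called, 35.2% lower and 34.4% higher), and a median log2 fold change of -0.64. Vim, encoding vimentin of mesenchymal cells, had 3322 to 3385 counts in the control lines and 6252 to 7408 in the libraries labelled knockout, and rose by 1.07 ± 0.027 (SE) on the log2 scale (adjusted p = 3.42e-35). Nes, encoding nestin of neural progenitors, went the other way, from 2550 to 2700 counts to 461 to 537 counts (log2 fold change -2.33 ± 0.040, SE, adjusted p = 2.12e-42). The muscle gene Des rose by 0.60 (adjusted p = 2.97e-11). Nefm (-1.76, adjusted p = 8.03e-20), Nefl (-0.98, adjusted p = 7.64e-21) and the nuclear lamin gene Lmna (-1.17, adjusted p = 5.75e-28) fell. Nefh, called higher by 0.09 (adjusted p = 0.011), lost its call without control line 2 or line 1 of the libraries labelled knockout (12 of 14 called each time).

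Transcription factor genes of families that have been described at simple keratin genes (AP-1, ETS, CDX, KLF and GATA) had 15 of 17 genes called, 12 lower and 3 higher, against 69.5% of all genes called, 35.2% lower and 34.4% higher. The median log2 fold change was -0.99. Jun, an AP-1 subunit, had 466 to 527 counts in the control lines and 107 to 118 in the libraries labelled knockout (log2 fold change -2.06 ± 0.083, SE, adjusted p = 5.67e-27). Ets1 (-2.0, adjusted p = 3.95e-19), Klf6 (-2.0, adjusted p = 8.56e-41) and the AP-1 gene Fosl2 (-1.05, adjusted p = 2.22e-16) also fell. Klf4, a zinc finger factor of both epithelium and pluripotent cells, rose from 1852 to 1911 counts to 6454 to 6908 counts (log2 fold change 1.90 ± 0.030, SE, adjusted p = 2.95e-44), and Klf5 rose by 0.41 (adjusted p = 1.01e-15). Leaving out line 1 of the libraries labelled knockout left 14 of 17 called. The plot of list medians and single genes shows these lists beside the keratins.

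**Figure D4:**
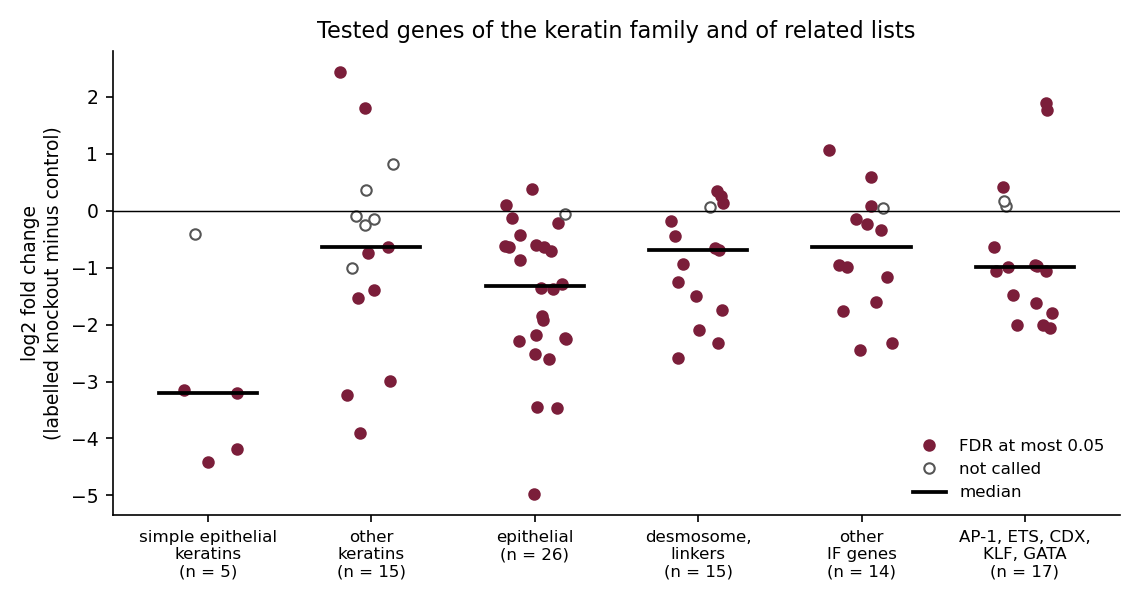
Log2 fold change, libraries labelled knockout over control, of each tested gene of the 5 keratins, the other keratins and the 4 gene lists, with filled points for genes called, open points for the rest and a bar at the list median. The medians run from -3.21 for the 5 keratins to -0.63 for the other keratins, with -1.32 for the epithelial list, -0.99 for the transcription factors, -0.69 for the desmosome list and -0.64 for other intermediate filaments.

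Markers of the labelled cell type and of other cell types that express simple keratins were read from lists, whose counts stand against 69.5% of all genes called, 35.2% lower and 34.4% higher. All 10 pluripotency genes were counted in every library, with a summed level of 5170 to 5300 cpm in the control lines and 6670 to 6700 cpm in the libraries labelled knockout, and 8 were called higher and 2 lower. Pou5f1, the core pluripotency factor, had 31372 to 32202 and 32177 to 37653 counts (log2 fold change 0.20 ± 0.022, SE, adjusted p = 2.79e-11), Nanog rose by 1.13 (adjusted p = 1.2e-39) and Zfp42 fell by 0.77 on the log2 scale (adjusted p = 1.23e-32). Tfcp2l1 (1.56), Esrrb (1.16), Sox2 (0.43), Utf1 (0.38), Tdgf1 (0.24) and Dppa5a (0.20) were also called higher and Klf2 (-0.17) lower, with log2 fold changes in parentheses and adjusted p from 4.15e-43 for Tfcp2l1 to 6.15e-06 for Klf2. The summed trophoblast list was 81.7 to 84.5 cpm in the control lines and 82.7 to 84.7 cpm in the libraries labelled knockout, with 6 of 9 tested genes lower and 2 higher. Most of the sum was Tfap2c, at 53.3 ± 0.731 and 70.6 ± 1.96 cpm (SD, n = 3 each), so the sum hides the lower genes. Within the list Hand1 (-3.15, adjusted p = 1.87e-24) and Gata2 (-1.80, adjusted p = 1.71e-18) fell, Eomes (0.40, adjusted p = 0.000676) and Tfap2c (0.41, adjusted p = 1.04e-14) rose, and the placental gene Tpbpa was at 0 in all libraries. The primitive endoderm list summed to 532 to 536 and 555 to 562 cpm, with 4 of 10 tested genes lower and 2 higher, 6 of 10 called in all, and with Afp and Ttr at 3 counts or fewer everywhere. Nearly all of that sum was Sparc (385 ± 4.59 and 428 ± 5.25 cpm, SD, n = 3 each, log2 fold change 0.15, adjusted p = 1.46e-07) and Lamb1 (135 ± 3.89 and 118 ± 2.63 cpm, log2 fold change -0.19, adjusted p = 6.53e-08), and Dab2 was not called (-0.16, adjusted p = 0.145).

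The surface ectoderm list, which includes Krt5, Krt10, Krt14 and Krt15, summed to 177 to 193 cpm in the control lines and 119 to 129 cpm in the libraries labelled knockout, most of it from Sfn (log2 fold change -0.59 ± 0.031, SE, adjusted p = 1.63e-22), and 2 of 6 tested genes were lower, a share near the 35.2% of all genes. Ivl, of terminally differentiated epidermis, had 3 counts or fewer in every library. The intestinal list, the cell type of Krt20, summed to 3.28 to 3.39 and 4.43 to 6.43 cpm, with 1 of 4 tested genes lower and 3 higher, and its defining genes Fabp1 and Fabp2 were at 0 and Guca2a at 3 counts or fewer. The fibroblast list moved in the same direction as Krt8 and Krt18. It summed to 61.8 to 64.5 cpm in the control lines and 13.7 to 14.7 cpm in the libraries labelled knockout, with 6 of 8 tested genes lower, none higher and Lum at 0. Its collagen gene Col1a1 had 1095 to 1188 and 92 to 110 counts (log2 fold change -3.39 ± 0.071, SE, adjusted p = 7.29e-39), Col1a2 fell by 3.15 (adjusted p = 6.09e-25) and Thy1 by 0.76 (adjusted p = 6.27e-10). Whether cells of any of these types took part in the keratin differences was not tested.

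The genes whose profile over the 6 libraries was most like Krt8, Krt18 or Krt19 were found among the 11114 genes that averaged 100 counts or more, as the smallest root mean square (RMS) difference between centred log2(cpm + 1) values. With only 2 groups of 3 lines, likeness mainly reflects the size of the difference between groups, and the added 1 compresses genes of low level. For Krt18 the nearest were Tagln (RMS 0.035), a smooth muscle actin-binding protein gene at 111 ± 5.36 cpm in the control lines and 6.03 ± 0.299 cpm in the libraries labelled knockout (SD, n = 3 each), Acta1 (0.067), the skeletal muscle actin gene, and Gbp2b (0.082). For Krt8 they were Acta1 (RMS 0.14), Sned1 (0.15) and Krt18 (0.15). For Krt19 they were Cldn7 (RMS 0.032), Kbtbd11 (0.064) and Prss23 (0.068). Near profiles could hold unlike folds. Acta1 was 55.1-fold, Sned1 30.6-fold and Krt18 18.3-fold lower in the libraries labelled knockout, beside 21.2-fold for Krt8. Cldn7 was 10.9-fold, Kbtbd11 8.90-fold and Prss23 22.7-fold lower, beside 9.26-fold for Krt19. Near Krt18, Tagln was 18.3-fold and Gbp2b 38.6-fold lower. Krt18 was thus among the 3 genes nearest to Krt8, whereas Krt8 was not among the 3 nearest to Krt18.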

How the data were processed

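The authors removed ribosomal reads with Bowtie2 2.1.0, aligned the rest to mm10 with TopHat 2.0.10 and counted fragments per GENCODE M4 gene with HTSeq 0.6.1 (union mode, strand used), discarding reads of several genes or places and antisense reads. CASAVA 1.8.2 is also listed in the submitters' processing notes. The deposited values are whole-number counts per gene, not normalized, and 0 columns lacked a sample. Counting error is a lower limit on the error, since PCR copies were not told apart. Gene IDs were matched to symbols and positions through GENCODE M21 (42425 of 43309 matched).

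Genes that reached 10 counts in 1 library or more were tested with edgeR 4.0.16 (R 4.3.3), TMM scaling and the quasi-likelihood test of 3 against 3 lines, with Benjamini-Hochberg adjustment over all 16823 genes and a call at an adjusted p of at most 0.05. The SE is the log2 fold change divided by the square root of F. Levels are cpm on effective library sizes, and levels between genes are per kb of the longest transcript. A fold against a group near 0 used a floor of 3 counts in a library. The test was checked on simulated data in which few genes differed, in balanced directions and with 1 fixed dispersion. That check does not cover data where most genes differ, and 69.5% were called here. DESeq2 1.42.0, its size factors, no count filter, a replicate block, omission of each line, a fold minimum and summed exon lengths were alternatives.

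The 5 genes and the lists were chosen with earlier results of these data known. Named were the 5 genes, Zbtb24, their neighbours, other keratins averaging 10 counts or more, the largest 4 calls in each direction per pathway list among genes averaging 100 or more, markers averaging 100 or more or at 3 counts or fewer in every library, and the 3 nearest profiles. Krt84 falls outside this rule.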

Additional observations from a re-analysis of the deposited data

How the results depend on the processing

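Of 164 values under alternative settings, 157 stayed close to the value reported, that is within 1 SD between lines for fold changes, ratios and levels and within 1.5 times for counts of calls, and no fold change of the 5 genes changed direction. The 157 include the Krt8, Krt18 and Krt20 levels and the Krt8 to Krt18 ratio under summed exon length. Those values could not move, because both lengths are the same for these genes. The log2 fold changes ran from -4.51 to -4.32 for Krt8, -4.26 to -4.12 for Krt18, -3.23 to -3.09 for Krt7, -3.26 to -3.18 for Krt19 and -0.52 to -0.31 for Krt20 over all alternatives, including omission of each line in turn. In each of them 4 of the 5 were called, where 69.5% of all genes tested were called under the main setting. The replicate numbers do not pair the lines (correlations of deviations between lines of the same number 0.0236, 0.0522 and 0.0098). With the number as a replicate block, Krt8 was at -4.41, Krt18 at -4.19, Krt7 at -3.15, Krt19 at -3.21 and Krt20 at -0.42, and the calls were 4 of the 5, 9 other keratins, 25 epithelial, 14 desmosome, 13 intermediate filament and 15 transcription factor genes, all as reported. With a log2 fold change of 1 or more in size also required, 17.0% of all genes tested were called. By list, 7 other keratins, 14 epithelial, 6 desmosome, 6 other intermediate filament and 10 transcription factor genes were called. Fewer genes pass there by construction. With summed exon length, Krt7 was at 2.15 cpm per kb in the control lines and 0.241 in the libraries labelled knockout, and Krt19 at 34.0 and 3.67 cpm per kb, because the longer length divides the same counts. Among the 164 values, these are all that this length could change, and all of them moved. The keratin shares also change with the length but are not among the 164. With summed exon length the 5 genes made up 80.4% in the control lines and 33.6% in the libraries labelled knockout. Krt8 was 39.6% and 12.9%, Krt42 9.1% and 37.6%, and the type II to type I ratio 0.684 and 0.176. The percentiles were computed on the longest transcript only. DESeq2 lost Krt84, Elf3, Tchp, Nefh and Cdx2. Without the count filter 40 other keratins were tested and 11 called. The share of all genes called under that setting is not given, so nothing is read from this count. Depth limits Krt20, at 11 to 21 counts, and the keratins under 10 counts in every library.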
